A study of Mus musculus with 8 samples.

Results

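The CCR4-NOT complex is the main deadenylase of animal cells: it shortens the poly(A) tails of mRNAs, which silences them and commits them to decay. CNOT1 is its scaffold, CNOT2 and CNOT3 form the NOT module that receives many RNA-binding proteins, the paralogs CNOT6 and CNOT6L and the paralogs CNOT7 and CNOT8 are alternative catalytic subunits, CNOT10 belongs to a module at the N-terminal part of the scaffold, and CNOT4 is a ubiquitin ligase that associates loosely with the rest in mammals. In germ cells the complex is recruited to mRNAs by NANOS proteins and other regulators. DAZL, a germ cell protein that binds the 3′ untranslated regions of mRNAs, was the protein precipitated here. The measurements describe the relative signal of each subunit's mRNA in the DAZL precipitates and their controls, not the amount or activity of the subunit proteins.

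The 9 genes Cnot1, Cnot2, Cnot3, Cnot4, Cnot6, Cnot6l, Cnot7, Cnot8 and Cnot10 were chosen by name, as all probes on the array whose gene name equals one of them and which are not control spots. They make up 27 of 41174 probes and 9 of 27677 genes. Of the 27 probes 24 were kept, because both arrays of at least 1 group read them well above background, and all 9 genes were among the 19020 tested. The 3 probes left out, 1 of Cnot6 and 2 of Cnot4, were not well above background on any array. Probe sequences were not used here, so hybridization of one paralog's mRNA to the other's probe, as for Cnot6 and Cnot6l or Cnot7 and Cnot8, was not tested.

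Native RNA immunoprecipitation (RNA-IP, without UV crosslinking) was done on mouse embryonic stem cells of mixed C57BL/6 129SV strain, derived from the V6.5 line, that express DAZL carrying GFP and V5 tags. Feeder cells were depleted and the cells were then kept for 12 days in differentiation medium, which the labels describe as giving primordial germ cells in vitro. The groups, of 2 arrays each, are RNA precipitated with anti-V5 (V5 IP), RNA precipitated with anti-GFP (GFP IP), RNA precipitated with normal mouse IgG (mock IP) and total RNA of the lysate (input). All 4 groups come from cells that carry the tagged DAZL, and both antibodies share the same mock IP and input arrays. The series describes 2 independent experiments, and the replicate number of each array is also its slide, so slide 1 and slide 2 each hold 1 array of every group.

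Each array is 1-colour (Cy3), and the unit below is the log2 signal minus the log2 of that array's 75th percentile, so 0 is the level of the 75th percentile. It is a share within an array and not an absolute yield. The 75th percentile lay between 352 and 1130 intensity units, and the lowest was mock IP array 1, which also stood apart from the other 7 arrays on the second principal component (24.5% of the variance). In the input, 10 of 11 germ cell markers were well above background on both arrays, Prdm14 being the exception, and so were all 4 of 4 markers in each of 5 lists for endoderm, mesoderm, neuroectoderm, fibroblast and feeder cells, and endothelial and blood cells. Of all probes, 70.5% were well above background on input array 1 and 67.4% on input array 2. Detection of the markers thus does not show which cell types the cultures held. A few cells rich in an mRNA cannot be told apart from many cells with little of it. Dazl mRNA itself was 6.19-fold higher in the V5 IP and 6.56-fold higher in the GFP IP than in the mock IP (adjusted p = 0.00494 and 0.00388, limma). No probe of the 9 genes was saturated, and the probe that stands for each gene, the one with the highest mean signal, was well above background on 8 of 8 arrays.

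The first question is which subunit mRNAs came down with tagged DAZL beyond the mock IP. On the probe that stands for each gene, Cnot6l and Cnot4 mRNA were higher in both DAZL IPs than in the mock IP, by 2.52- to 3.31-fold, and Cnot3 mRNA was lower in both, by 2.43- and 2.59-fold. The other 3 kept Cnot4 probes were not called in either. Cnot6 was not called on the probe that stands for it, but its other kept probe was called higher, by 3.81- and 4.37-fold. The scaffold Cnot1, the NOT module gene Cnot2 and the N-terminal module gene Cnot10 lay within 0.41 of 0 on the log2 scale in both comparisons, and none of the 3 was called. In the V5 IP 2 of 9 genes were called higher and 1 lower at an adjusted p under 0.05 (limma over all 8 arrays, Benjamini-Hochberg over all genes), where 14.6% of all genes were called higher and 21.4% lower. In the GFP IP the counts were also 2 higher and 1 lower, against 16.3% and 26.5% of all genes. The median log2 fold change of the 9 genes was -0.23 in the V5 IP and -0.20 in the GFP IP, against -0.44 for the median of all genes in each, so a gene near -0.44 sat at the middle of all fold changes. The plot of signals by array shows all 9 genes.

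**Figure D1:**
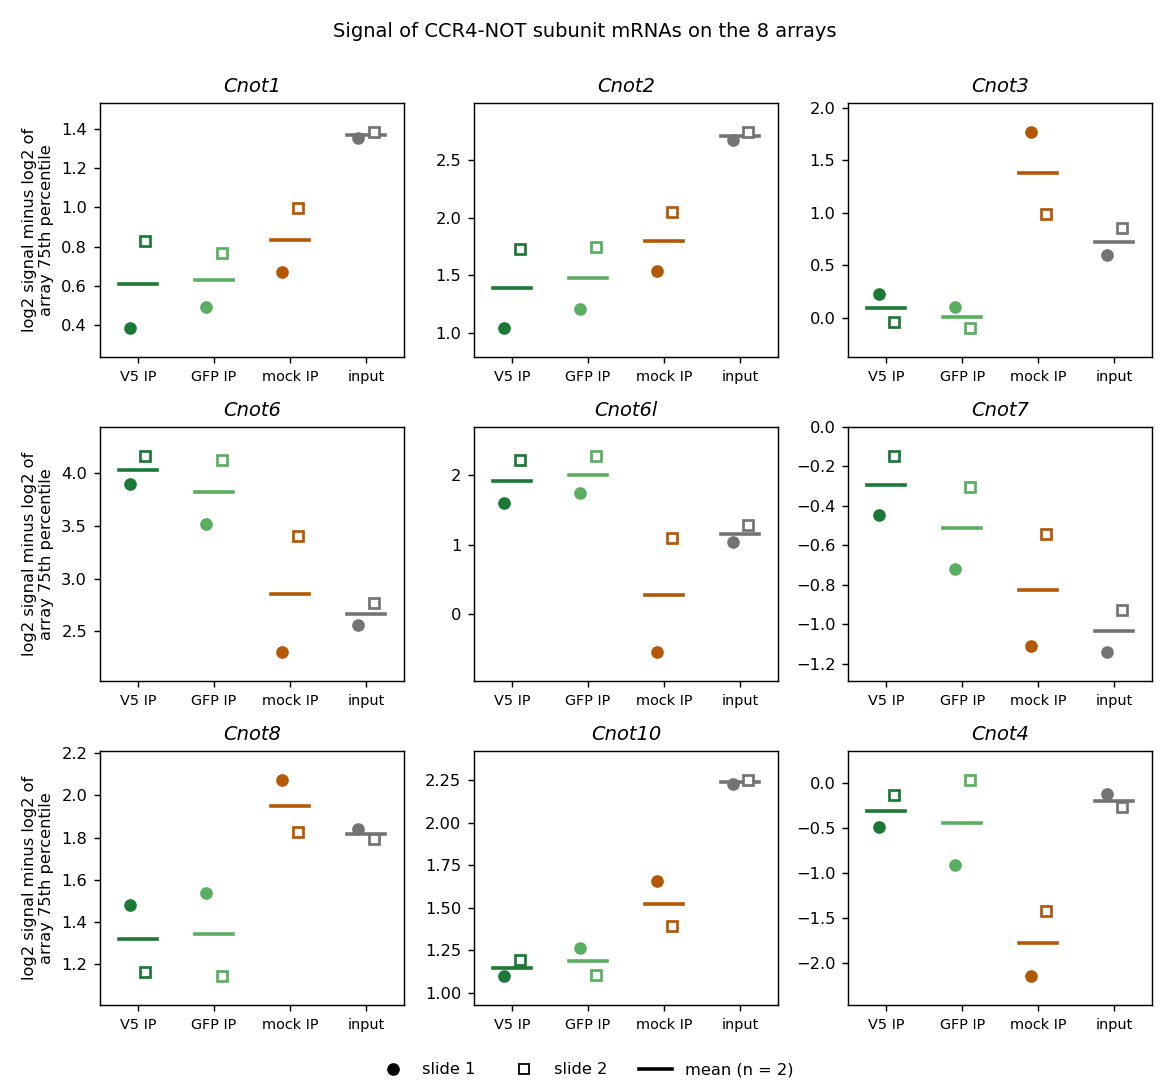
Normalized log2 signal (y axis, log2 signal minus log2 of the array's 75th percentile; each panel has its own scale) of the 9 CCR4-NOT genes in V5 IP, GFP IP, mock IP and input. Circles are slide 1, open squares slide 2 and bars the mean of 2 arrays; Cnot6l and Cnot4 are lowest in the mock IP, Cnot3 is lowest in the 2 DAZL IPs, and Cnot1, Cnot2 and Cnot10 are highest in the input.

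Cnot1, the scaffold, read 0.39 and 0.83 in the V5 IP, 0.49 and 0.77 in the GFP IP, 0.67 and 0.996 in the mock IP and 1.35 and 1.38 in the input. The 3 precipitates overlapped one another, and both input arrays lay above all of them. Against the mock IP its log2 fold change was -0.23 ± 0.26 (SE, n = 2 each; adjusted p = 0.509, limma) in the V5 IP and -0.20 ± 0.26 (adjusted p = 0.546) in the GFP IP. The 95% intervals of these values were -0.84 to 0.39 and -0.81 to 0.41. Cnot2, which with CNOT3 forms the platform that the NOT module offers to RNA-binding proteins, read 1.05 and 1.73 in the V5 IP, 1.21 and 1.75 in the GFP IP, 1.53 and 2.05 in the mock IP and 2.67 and 2.74 in the input. Its order was that of Cnot1, with overlapping precipitates below the input, and its log2 fold changes against the mock IP were -0.41 ± 0.33 (adjusted p = 0.353) in the V5 IP and -0.32 ± 0.33 (adjusted p = 0.464) in the GFP IP.

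Cnot3, the other gene of the NOT module, was the one gene called lower than the mock IP. It read 0.23 and -0.04 in the V5 IP, 0.10 and -0.10 in the GFP IP, 1.77 and 0.99 in the mock IP and 0.60 and 0.85 in the input. Both arrays of each DAZL IP lay below every mock IP and input array. Against the mock IP Cnot3 fell by 1.28 ± 0.31 log2 units in the V5 IP (adjusted p = 0.0233, limma) and by 1.37 ± 0.31 in the GFP IP (adjusted p = 0.0144). Within slide 1 the differences were -1.54 for V5 and -1.67 for GFP, and within slide 2 they were -1.03 and -1.08. A second Cnot3 probe (A_52_P214455) fell as well, by 1.07 in the V5 IP and 1.19 in the GFP IP (adjusted p = 0.0248 and 0.0142 in the fit over all probes). The third probe was not well above background on any DAZL IP array and was so on 1 of 2 mock IP arrays, so no fold is given for it.

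The CCR4-type catalytic genes Cnot6 and Cnot6l, whose proteins are exonucleases of the EEP family, had higher means in both DAZL IPs than in both controls, with calls that differed by comparison and probe. Cnot6l read 1.59 and 2.22 in the V5 IP, 1.74 and 2.27 in the GFP IP, -0.54 and 1.10 in the mock IP and 1.03 and 1.28 in the input. Both DAZL IPs lay above both controls, and the mock IP arrays spread widely (SD 1.16). Against the mock IP Cnot6l rose 3.09-fold in the V5 IP (log2 1.63 ± 0.52, adjusted p = 0.0443, limma) and 3.31-fold in the GFP IP (log2 1.73 ± 0.52, adjusted p = 0.0320). The differences were 2.14 and 2.28 within slide 1 and 1.12 and 1.17 within slide 2. A second probe (A_51_P208031), designed on another Cnot6l transcript, rose by 1.55 in the V5 IP and 1.62 in the GFP IP (adjusted p = 0.0385 and 0.0281). In the fit over all probes the first probe had an adjusted p of 0.0502 in the V5 IP (0.00915 in the block fit) and 0.0367 in the GFP IP.

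Cnot6 read 3.90 and 4.16 in the V5 IP, 3.52 and 4.12 in the GFP IP, 2.31 and 3.40 in the mock IP and 2.56 and 2.77 in the input. All 4 DAZL IP arrays lay above all control arrays, but on this probe the differences from the mock IP, 1.17 ± 0.39 for V5 and 0.96 ± 0.39 for GFP on the log2 scale, missed the threshold (adjusted p = 0.0511 and 0.0811, limma). With the slide as a block both passed (adjusted p = 0.00892 and 0.0137). The annotation of this probe (A_51_P449911) describes a cDNA with an apparent retained intron. The other kept Cnot6 probe (A_52_P544032), designed on the gene's RefSeq transcript, read 1.81 and 2.47 in the V5 IP, 2.05 and 2.62 in the GFP IP, -0.48 and 0.90 in the mock IP and 0.83 and 0.98 in the input. On it Cnot6 rose 3.81-fold in the V5 IP and 4.37-fold in the GFP IP against the mock IP (adjusted p = 0.0262 and 0.0155). Which probe stands for Cnot6 thus decided whether the gene was called.

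The CAF1-type catalytic genes Cnot7 and Cnot8, whose proteins are exonucleases of the DEDD family, were not called against the mock IP without the slide as a block, and their values had opposite signs. Cnot7 read -0.44 and -0.15 in the V5 IP, -0.72 and -0.31 in the GFP IP, -1.11 and -0.54 in the mock IP and -1.14 and -0.93 in the input. The V5 IP arrays lay above the mock IP arrays and the GFP IP arrays overlapped them. Its log2 fold changes were 0.53 ± 0.29 in the V5 IP and 0.31 ± 0.29 in the GFP IP (adjusted p = 0.176 and 0.403, limma), and a second probe gave 1.15 and 1.11 (adjusted p = 0.0974 and 0.1001), which passed with the block (adjusted p = 0.0346 and 0.0364). Cnot8 read 1.48 and 1.16 in the V5 IP, 1.54 and 1.15 in the GFP IP, 2.07 and 1.83 in the mock IP and 1.84 and 1.79 in the input, so each DAZL IP lay below both controls. Its log2 fold changes were -0.63 ± 0.25 and -0.61 ± 0.25 (adjusted p = 0.0853 and 0.0868), close to the median of all genes, and with the slide as a block they passed the threshold (adjusted p = 0.0285 and 0.0298). The second Cnot8 probe had -0.30 in each DAZL IP (adjusted p = 0.522 and 0.516, limma) and was not called with the block (adjusted p = 0.246 and 0.242).

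Cnot10, of the N-terminal module, read 1.10 and 1.19 in the V5 IP, 1.26 and 1.10 in the GFP IP, 1.66 and 1.39 in the mock IP and 2.23 and 2.25 in the input. The order DAZL IPs, mock IP, input held on every array, but the steps below the mock IP, -0.38 ± 0.23 and -0.34 ± 0.23 on the log2 scale, were not called (adjusted p = 0.207 and 0.248, limma). With the block, its dimmest probe was called lower in both (adjusted p = 0.0302 and 0.00715) and its second in the GFP IP (adjusted p = 0.0406). Cnot4, the ubiquitin ligase, read -0.49 and -0.13 in the V5 IP, -0.92 and 0.03 in the GFP IP, -2.14 and -1.42 in the mock IP and -0.13 and -0.27 in the input. Here the mock IP was the group apart, and the DAZL IPs overlapped the input. Cnot4 rose 2.77-fold in the V5 IP (log2 1.47 ± 0.38, adjusted p = 0.0271) and 2.52-fold in the GFP IP (log2 1.34 ± 0.38, adjusted p = 0.0278) against the mock IP. The other 3 kept Cnot4 probes gave 0.46, 0.03 and 0.08 in the V5 IP and 0.40, 0.06 and 0.27 in the GFP IP, none of them called. With the mean of all 4 kept probes in place of the brightest, Cnot4 was not called (log2 0.51 in the V5 IP, adjusted p = 0.276, and 0.52 in the GFP IP, adjusted p = 0.267).

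**Figure D2:**
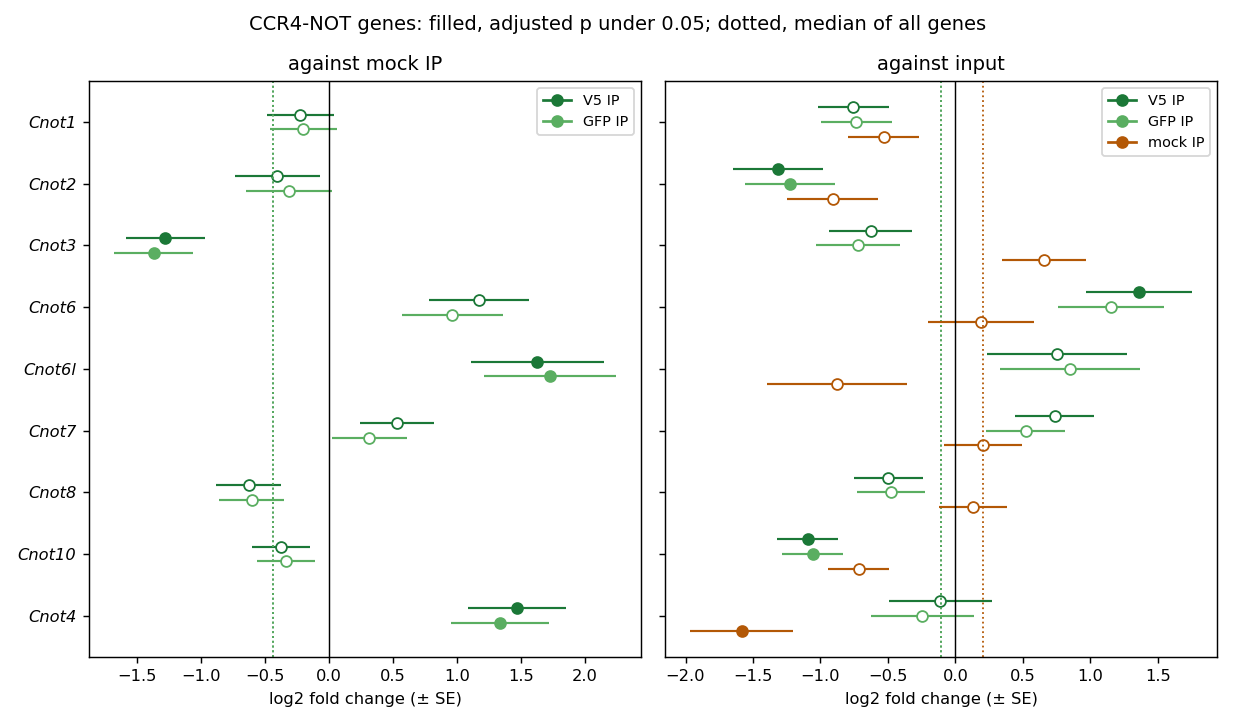
Log2 fold change with its SE (x axis) of the 9 genes, in V5 IP and GFP IP against mock IP (left) and in V5 IP, GFP IP and mock IP against input (right). Filled points have an adjusted p under 0.05 in the limma fit and dotted lines are the medians of all 19020 genes; Cnot6l and Cnot4 are filled right of 0 and Cnot3 left of 0 in the left panel, and Cnot2 and Cnot10 are filled left of 0 for both DAZL IPs in the right panel.

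Counted by groups that do not overlap, 4 of 9 genes (Cnot4, Cnot6, Cnot6l and Cnot7) had both V5 IP arrays above both mock IP arrays, against 22.3% of all genes, and 3 of 9 (Cnot3, Cnot8 and Cnot10) had both below, against 47.2%. In the GFP IP 3 of 9 genes lay above and 3 of 9 below, against 23.8% and 48.2% of all genes. With the slide as a block, which uses the differences within each slide, 3 genes were called higher and 2 lower in each DAZL IP: Cnot6 joined Cnot6l and Cnot4, and Cnot8 joined Cnot3. That fit called 19.4% of all genes higher and 38.5% lower in the V5 IP, and 20.9% and 40.2% in the GFP IP.

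The calls against the mock IP depended on mock IP array 1. Without it, 0 of the 9 genes were called in either direction in both DAZL IPs, where 5.57% of all genes were called higher and 0.405% lower in the V5 IP and 9.02% and 5.51% in the GFP IP. The log2 fold changes in the V5 IP and GFP IP were 0.81 and 0.91 for Cnot6l (adjusted p = 0.181 and 0.131, limma), 1.11 and 0.98 for Cnot4 (adjusted p = 0.135 and 0.148) and -0.89 and -0.98 for Cnot3 (adjusted p = 0.0855 and 0.0552). The V5 calls of Cnot3, Cnot6l and Cnot4 also ended without V5 IP array 1 or 2 or input array 1 or 2 (adjusted p = 0.0538 to 0.132), as did the GFP calls without GFP IP array 1 (not Cnot4), GFP IP array 2, or input array 1 or 2 (not Cnot3; adjusted p = 0.0521 to 0.131).

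The plot of all kept probes shows how far the probes of a gene went together. Over the 24 kept probes, 3 were called higher and 3 lower in the V5 IP, where 15.4% and 17.1% of all 28078 kept probes were, and 4 were called higher and 3 lower in the GFP IP, against 17.2% and 22.5%. These counts include the dimmest Cnot3 probe, called lower in both, and a Cnot1 probe (A_51_P144489) that was well above background on 4 of 8 arrays and was not called in either. Both kept probes of Cnot6 and of Cnot6l and both of Cnot7 had positive values in both DAZL IPs. All 3 of Cnot10, both of Cnot8 and both Cnot3 probes with signal in each group had negative ones. Cnot4, Cnot6 and, in the V5 IP, Cnot6l had both called and uncalled probes.

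**Figure D3:**
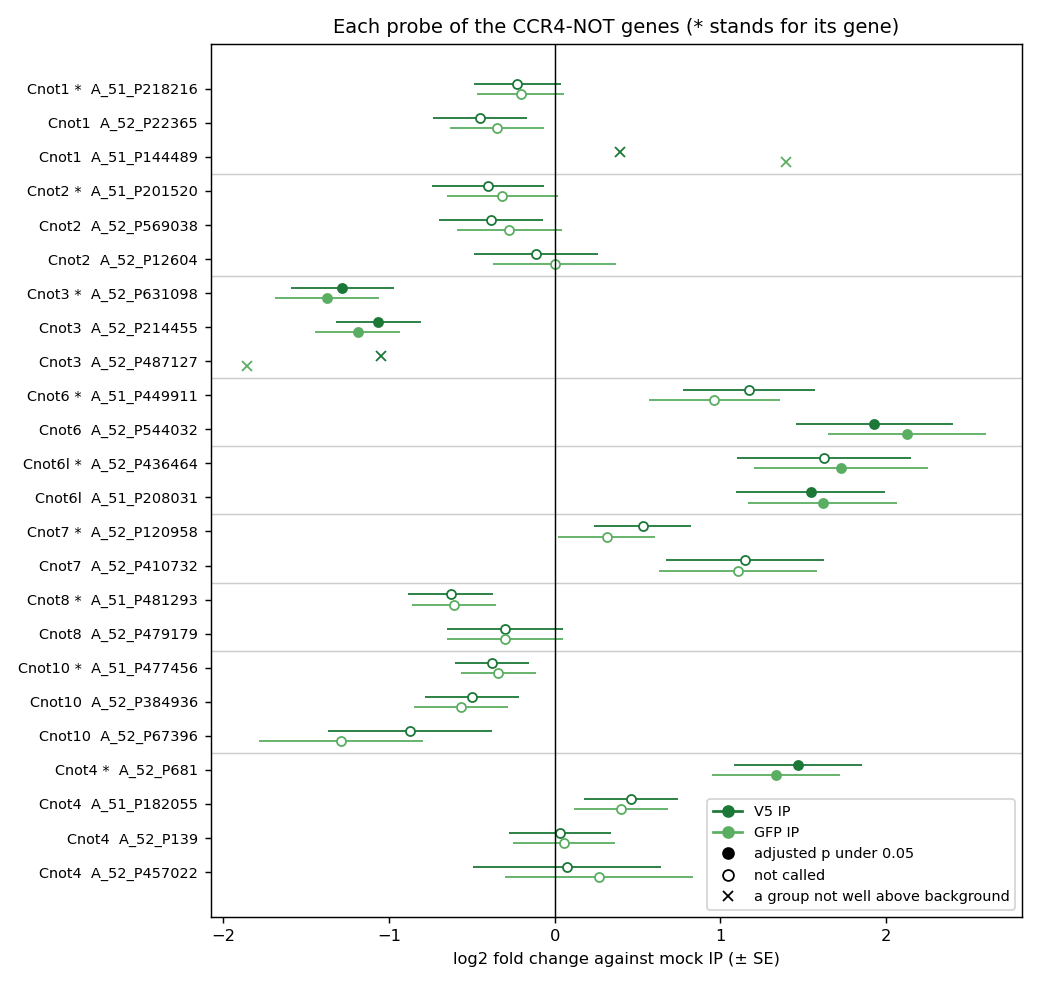
Log2 fold change with its SE against mock IP (x axis) of the 24 kept probes, grouped by gene (y axis), in the V5 IP and the GFP IP. Filled points have an adjusted p under 0.05 in the fit over all 28078 kept probes, crosses mark a comparison in which a group had no array well above background, and an asterisk marks the probe that stands for its gene; the second Cnot6 probe and both Cnot6l probes lie right of 1.5 in both IPs.

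The second question is which subunit mRNAs differed from the lysate they were precipitated from. Cnot2 and Cnot10 mRNA were lower in both DAZL IPs than in the input, by 2.08- to 2.49-fold, and Cnot6 was higher in the V5 IP. In the V5 IP 1 of 9 genes was called higher and 2 lower, where 14.2% of all genes were called higher and 13.7% lower. In the GFP IP 0 were called higher and 2 lower, against 16.0% and 16.9% of all genes, and 4 of 9 had an unadjusted p under 0.05, as did 44.3% of all genes. The median log2 fold change of the 9 genes was -0.50 in the V5 IP and -0.48 in the GFP IP, against -0.11 for all genes in each.

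Cnot2 fell by 1.32 ± 0.33 on the log2 scale in the V5 IP and by 1.23 ± 0.33 in the GFP IP relative to the input (adjusted p = 0.0252 and 0.0276, limma). All 3 Cnot2 probes were called lower in both, by 1.23 to 1.498 log2 units. Cnot10 fell by 1.10 ± 0.23 in the V5 IP and by 1.06 ± 0.23 in the GFP IP (adjusted p = 0.0122 and 0.0116). Its second probe fell by 1.71 and 1.77 (adjusted p = 0.00684 and 0.00522), and the third by 1.94 in the GFP IP (adjusted p = 0.0232) with -1.53 in the V5 IP (adjusted p = 0.0565, and 0.00424 with the slide as a block).

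Cnot6 rose 2.57-fold in the V5 IP over the input (log2 1.36 ± 0.39, adjusted p = 0.0383, limma) and had a log2 fold change of 1.15 ± 0.39 in the GFP IP (adjusted p = 0.0581). Its RefSeq probe gave 1.24 and 1.43 (adjusted p = 0.0922 and 0.0549), which passed with the slide as a block (adjusted p = 0.0133 and 0.0066). For Cnot6l the values over input were 0.75 ± 0.52 and 0.85 ± 0.52 (adjusted p = 0.317 and 0.244), smaller than over the mock IP. Cnot1 had -0.76 and -0.74 (adjusted p = 0.0672 and 0.0662), while its second probe (A_52_P22365) was called lower by 1.45 and 1.34 (adjusted p = 0.0115 and 0.0123). Cnot3 had -0.63 and -0.72 (adjusted p = 0.169 and 0.113), and its second probe was called lower by 0.86 and 0.98 (adjusted p = 0.0441 and 0.0251).

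Cnot7 had 0.74 and 0.52 over the input (adjusted p = 0.0987 and 0.209, limma), Cnot8 had -0.50 and -0.48 (adjusted p = 0.184 and 0.188), and Cnot4 had -0.11 and -0.25 (adjusted p = 0.855 and 0.659). The Cnot4 intervals, -1.003 to 0.78 in the V5 IP and -1.14 to 0.64 in the GFP IP, do not place its mRNA above or below the input. Over the 24 kept probes 1 was called higher and 9 lower in the V5 IP, against 13.9% and 13.6% of all kept probes, and 0 higher and 9 lower in the GFP IP, against 15.6% and 16.7%. By groups that do not overlap, 3 of 9 genes lay above the input and 5 below in each DAZL IP, against 30.7% and 39.7% of all genes in the V5 IP and 31.7% and 41.2% in the GFP IP. When the slide entered as a block, 2 genes were called higher and 3 lower in the V5 IP, against 20.4% and 24.3% of all genes, and 1 higher and 3 lower in the GFP IP, against 22.0% and 26.9%. Cnot1 joined the lower calls in both (adjusted p = 0.0183 and 0.0186), Cnot7 the higher ones in the V5 IP (adjusted p = 0.0192) and Cnot6 the higher ones in the GFP IP (adjusted p = 0.00777).

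These calls too ended when single arrays were left out. The V5 calls of Cnot2, Cnot10 and Cnot6 ended without V5 IP array 1, input array 1 or input array 2, and that of Cnot6 also without V5 IP array 2 (adjusted p = 0.0804 to 0.181, limma), and the GFP calls of Cnot2 and Cnot10 ended without GFP IP array 1, input array 1 or input array 2, and that of Cnot10 also without GFP IP array 2 (adjusted p = 0.0612 to 0.165). Without mock IP array 1 or mock IP array 2, Cnot6 was called higher and Cnot3 lower in the GFP IP.

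The mock IP itself differed from the input for some subunits. Cnot4 fell by 1.58 ± 0.38 on the log2 scale in the mock IP relative to the input (adjusted p = 0.0432, limma), with -2.01 within slide 1 and -1.15 within slide 2. It was the single call among the 9 genes, 0 being higher, where 6.64% of all genes were called higher and 4.09% lower. By groups that do not overlap, 1 of 9 genes lay above the input and 4 below, against 40.8% and 26.3% of all genes. The other 3 kept Cnot4 probes had -0.72, -0.66 and -1.31 and were not called (adjusted p = 0.127 to 0.179), although the block fit called those at -0.66 and -1.31 lower (adjusted p = 0.0395 and 0.0175), and with the mean of all 4 kept probes Cnot4 was not called (log2 -1.07, adjusted p = 0.0824). The Cnot4 call also ended without mock IP array 1, input array 1 or input array 2 (adjusted p = 0.189 to 0.228). Cnot6l had -0.88 ± 0.52 (adjusted p = 0.268), with -1.57 within slide 1 and -0.18 within slide 2, and Cnot3 had 0.65 ± 0.31 (adjusted p = 0.181). Cnot2 had -0.91 ± 0.33 and Cnot10 -0.72 ± 0.23 (adjusted p = 0.106 and 0.0761). Both were called lower with the slide as a block (adjusted p = 0.0183 and 0.0296), a fit that called 0 of 9 genes higher and 3 lower, against 21.4% and 13.4% of all genes. Of the 3 genes called in the DAZL IPs against the mock IP, Cnot4 and Cnot6l thus had mock IP means below their input means and Cnot3 one above it.

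The third question is whether the 2 antibodies against the same tagged protein gave the same subunit mRNAs. No difference was called between V5 IP and GFP IP among the 9 genes (limma, 0 higher and 0 lower, 0 with an unadjusted p under 0.05), nor among all 19020 genes, 0% in either direction, of which 190 had an unadjusted p under 0.05. With the slide as a block 1 gene in all (0.00526%) was called, not one of the 9. For 0 of 9 genes did the groups lie apart, against 9.95% of all genes with V5 above GFP and 6.67% with V5 below. The V5 minus GFP differences ran from -0.10 for Cnot6l to 0.22 for Cnot7 on the log2 scale. The widest 95% interval was -1.30 to 1.11, for Cnot6l, and the narrowest -0.56 to 0.49, for Cnot10. These intervals come from the fit without the slide as a block, in which the SE for Cnot6l was 0.518, against 0.325 with the block. Differences between the antibodies within these intervals were not excluded by that fit.

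Among the other genes of deadenylation (10 genes, all measured), the V5 IP had 3 called higher and 3 lower against the mock IP and the GFP IP 4 and 3, with median log2 fold changes of -0.08 and -0.12. The shares of all genes called there were 14.6% higher and 21.4% lower in the V5 IP and 16.3% and 26.5% in the GFP IP. Noct, an EEP-family protein related to the CCR4-type subunits that acts in circadian metabolism, read 3.43 and 2.69 in the V5 IP, 3.34 and 2.80 in the GFP IP, and 1.04 and 1.22 in the mock IP. It rose 3.81-fold and 3.83-fold (adjusted p = 0.0077 and 0.00638, limma). Cnot9, the CCR4-NOT subunit that binds GW182 proteins, rose 2.31-fold in the V5 IP and 2.86-fold in the GFP IP (adjusted p = 0.0377 and 0.0166). Cnot11, the partner of CNOT10 in the N-terminal module, had -0.27 and -0.35 and was not called (adjusted p = 0.385 and 0.262). Tnks1bp1, a large protein that copurifies with CCR4-NOT, fell by 1.05 and 1.16 log2 units (adjusted p = 0.0193 and 0.0110). Parn, a separate poly(A)-specific ribonuclease, fell by 0.80 and 0.78 (adjusted p = 0.0365 and 0.0321).

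Of 33 genes for proteins that bring deadenylases to mRNA or act at the poly(A) tail, 31 were measured (not Btg4 and Nanos2). The V5 IP had 15 called higher and 2 lower against the mock IP, and the GFP IP 16 and 2, with median log2 fold changes of 0.95 and 0.998. Of all genes, 14.6% were called higher and 21.4% lower in the V5 IP and 16.3% and 26.5% in the GFP IP. Some cell type markers moved in the same comparisons. Of 10 measured germ cell markers, Dazl among them, 5 were called higher and 1 lower in each DAZL IP (medians 1.23 and 1.28). Nanos3 and Dnd1 are both among these markers and among the 31 genes above, so the lists are not separate. Of 4 fibroblast and feeder markers, 2 were lower in each (medians -1.24 and -1.42). Neuroectoderm markers had 0 higher and 1 lower in each (medians 0.44 and 0.47). Endothelial and blood markers had 1 higher in each, with 1 lower in the V5 IP and 2 in the GFP IP (medians -0.11 and -0.15). Mesoderm markers had 0 higher, with 0 lower in the V5 IP and 1 in the GFP IP (medians -0.56 and -0.64). Endoderm markers had 0 called (medians -0.12 and -0.17). Signals were also summed over each list, as multiples of the 75th percentile, for V5 IP, GFP IP and mock IP in turn. Germ cell markers lay at 99.2 to 154, 114 to 159 and 44.6 to 60.0. Fibroblast and feeder markers lay at 4.67 to 6.23, 4.37 to 5.49 and 8.37 to 20.004. Neuroectoderm markers lay at 9.45 to 20.4, 10.3 to 18.9 and 7.08 to 8.43. Endothelial and blood markers lay at 3.07 to 4.88, 3.71 to 5.63 and 2.57 to 3.12. Mesoderm markers lay at 2.78 to 3.36, 3.37 to 4.504 and 4.01 to 6.99. Endoderm markers lay at 0.91 to 1.25, 0.93 to 1.16 and 0.91 to 1.26. Sums above the mock IP were thus not limited to germ cell markers. All measured germ cell, fibroblast and feeder, neuroectoderm and endoderm markers were well above background on both arrays of each of these groups. The mesoderm list and the endothelial and blood list held markers that were not. The part of cell types in the values of the subunits and lists was not tested. Paip1, which binds poly(A)-binding protein and favours translation rather than recruiting a deadenylase, rose 8.53-fold in the V5 IP and 8.10-fold in the GFP IP (adjusted p = 0.00208 and 0.0018, limma). Paip2b, which displaces poly(A)-binding protein from the tail, rose 4.70-fold and 5.56-fold (adjusted p = 0.00604 and 0.00378). Nanos3, the germ cell protein that works through CCR4-NOT, fell by 0.85 and 0.84 on the log2 scale (adjusted p = 0.0339 and 0.0292). Samd4, a relative of Drosophila Smaug, fell by 0.82 and 1.11 (adjusted p = 0.0323 and 0.0120).

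Of 20 genes of decapping and 5′ decay, the step after deadenylation, 7 were called higher and 0 lower in each DAZL IP against the mock IP, with median log2 fold changes of 0.45 and 0.59, where 14.6% of all genes were higher and 21.4% lower in the V5 IP and 16.3% and 26.5% in the GFP IP. At an unadjusted p under 0.05, 2 were lower in the V5 IP and 3 in the GFP IP (limma). In either direction, 50.2% of all genes passed that threshold in the V5 IP and 53.6% in the GFP IP. The share lower alone is not given, so the counts of 2 and 3 are not compared with all genes. Lsm3, a subunit of the LSM ring that binds deadenylated ends and also serves in splicing, rose 6.43-fold and 5.65-fold (adjusted p = 0.00398 and 0.00439, limma). Lsm14b, an oocyte mRNP protein, rose 4.05-fold and 4.34-fold (adjusted p = 0.0051 and 0.00384). The smallest called values were those of Lsm14a, a P-body protein, at 0.85 and 0.96 (adjusted p = 0.0427 and 0.0252), followed by Pnrc2, a decapping coactivator, at 1.35 in the V5 IP (adjusted p = 0.0294) and Lsm6 at 1.37 in the GFP IP (adjusted p = 0.0135).

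**Figure D4:**
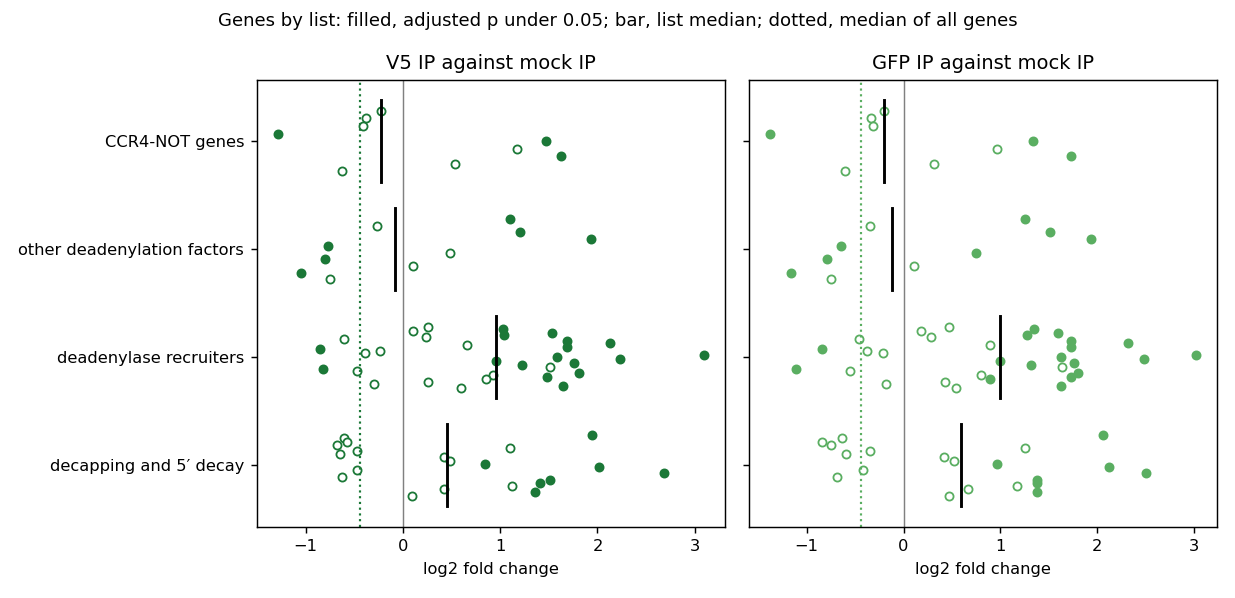
Log2 fold change against mock IP (x axis) of each measured gene of the 9 CCR4-NOT genes and of 3 lists (y axis), in the V5 IP (left) and the GFP IP (right). Filled points have an adjusted p under 0.05, bars are list medians and dotted lines the median of all genes; the medians of the recruiter list, 0.95 and 0.998, lie right of those of the CCR4-NOT genes, -0.23 and -0.20.

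Without mock IP array 1, the V5 IP and GFP IP had 0 and 2 of the other deadenylation genes called higher and 0 and 1 lower, 5 and 11 of the recruiters higher and 0 and 1 lower, and 3 and 3 of the decapping genes higher. The shares of all genes there were 5.57% higher and 0.405% lower in the V5 IP and 9.02% and 5.51% in the GFP IP. In the block fit, the decapping list had 9 higher and 4 lower in the V5 IP and 9 and 5 in the GFP IP, against 19.4% and 38.5% of all genes and 20.9% and 40.2%.

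As a description of the patterns over the 8 arrays, which share 2 slides and 4 groups, the other genes whose signals ran most like those of each subunit were found by Pearson's r. For Cnot1 they were Zfp157 (0.997) and Tnpo3 (0.997), and for Cnot2 Tnpo3 (0.999) and Zfp157 (0.998), and Cnot1 and Cnot2 ran together at 0.998. Cnot3 ran most like Scnn1b (0.995) and Nop53 (0.994). Cnot6 ran most like Styx (0.996) and Hif1a (0.986), Cnot6l like Yod1 (0.998), and the paralogs Cnot6 and Cnot6l at 0.861 with each other. The nearest genes were Zc3h12c (0.983) and Arid4b (0.980) for Cnot7, Oxa1l (0.990) and Idua (0.988) for Cnot8, Hars (0.996) and Eif4a3 (0.993) for Cnot10, and Smarca1 (0.989) and Ncapg2 (0.982) for Cnot4. The paralogs Cnot7 and Cnot8 ran in opposite directions, at -0.879.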

How the data were processed

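RNA of 8 samples was hybridized to Agilent Mouse Whole Genome arrays. The deposited scanner files hold intensity values from Agilent Feature Extraction 9.1.3.1, background-subtracted within each array, per the file headers. The authors' deposited table gives a background-subtracted signal divided by the array's median and a quality score per spot, per the file headers, and served as an alternative, as log2(signal + 0.1). Alignment to a genome was not involved, and the number of arrays limits the precision.

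Here the processed intensity was taken as log2, less that of each array's 75th percentile. Control spots and outlier-flagged spots were left out, and a probe was kept where 1 or more groups read it well above background on each of their arrays (28078 of 41174). The brightest probe on average stood for its gene. limma 3.58.1 in R 4.3.3 fitted 19020 genes over all 8 arrays, with Benjamini-Hochberg adjustment over all genes, after tests on simulated data. Gene names were updated through RefSeq where an accession or symbol matched, and members kept the file's names. All 9 members with all probes are named, and from each list the 2 largest and 2 smallest called values in each IP, with the remaining CCR4-NOT subunits. One gene among the nearest patterns is not reported here. The members and lists were chosen with earlier results of these data known. Replicate number and slide coincide: deviations from the group means correlated at 0.313 to 0.782 between same-numbered arrays of different groups, so the fit with the slide as a block is given where it changes the call of a printed value of the members. The alternatives were quantile normalization, normexp background correction, the deposited table, no filter, the mean of all probes, median centring, only the groups compared, the slide block, and each array left out.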

Additional observations from a re-analysis of the deposited data

How the results depend on the processing

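The 54 values of the 9 genes (9 in each of 6 comparisons) were recomputed under 16 alternatives. Of the 864 results, 751 kept their side of the threshold, 75 lost a call and 38 gained one. No called value changed sign, and 31 of the 751, none of them called, did. In the order V5 IP against mock IP, GFP IP against mock IP, V5 IP against input, GFP IP against input and mock IP against input, the counts called higher were 2, 2, 1, 0 and 0 and those called lower 1, 1, 2, 2 and 1. With the slide as a block (replicate block) they were 3, 3, 2, 1 and 0 higher and 2, 2, 3, 3 and 3 lower, and the block ended no call. Quantile normalization gave 1, 2, 0, 0 and 0 higher and 2, 2, 3, 3 and 2 lower. In the 4 comparisons of a DAZL IP it called 15.6%, 17.2%, 15.2% and 17% of all genes higher and 20.8%, 24.1%, 16.6% and 19.1% lower. Normexp background correction gave 0 in every comparison and direction, where it called 5.02%, 6.21%, 6.24%, 6.6% and 0.0421% of all genes higher and 0.0578%, 2.42%, 1.76%, 2.49% and 0% lower. The authors' deposited table gave 3, 3, 2, 1 and 0 higher and 1, 1, 2, 2 and 1 lower. In the 4 DAZL IP comparisons it called 16.1%, 18.5%, 16.2% and 18.6% of all genes higher and 8.01%, 14.7%, 10.6% and 13.2% lower. Without a filter on dim probes (27659 genes in the adjustment) 0 were higher in any comparison and 0, 1, 2, 1 and 0 lower. In the 4 DAZL IP comparisons 7.05%, 9.21%, 7.73% and 8.97% of all genes were then higher and 3.58%, 11.5%, 6.21% and 8.37% lower. The mean of all kept probes gave 2, 2, 0, 0 and 0 higher and 1, 2, 4, 3 and 1 lower, centring on the median 3, 2, 1, 1 and 0 higher and 1, 1, 2, 2 and 1 lower, and a fit of only the groups compared 2, 2, 1, 1 and 0 higher and 0, 1, 2, 3 and 0 lower. In the 4 DAZL IP comparisons the mean of probes called 13.1%, 14.6%, 11.3% and 13% of all genes higher and 19.9%, 25.2%, 12.8% and 16.1% lower. Centring called 15%, 17.7%, 14.6% and 16.9% higher and 8.28%, 15.3%, 11.5% and 13.9% lower. The fit of only the groups compared called 10.8%, 14.4%, 14.4% and 18.1% higher and 2.06%, 15.3%, 14.4% and 21% lower. In the mock IP against input, quantile normalization, the deposited table and no filter called 8.03%, 5.82% and 0.26% of all genes higher. The mean of probes, centring and the fit of the groups compared called 6.65%, 4.31% and 0.121% higher there. The shares lower under these settings are not given, so the lower counts in that comparison are not a result about the 9 genes. In the 4 DAZL IP comparisons, the counts called among the 9 genes and among all genes both moved with the array left out. Leaving out each array in turn, the log2 fold change of Cnot3 against the mock IP ran from -1.67 to -0.89 in the V5 IP and from -1.77 to -0.98 in the GFP IP. For Cnot6l it ran from 0.81 to 2.45 and from 0.91 to 2.55, and for Cnot4 from 1.11 to 1.83 and from 0.86 to 1.81. V5 IP against GFP IP had 0 calls among the 9 genes throughout. Of 192 counts recomputed for the 3 lists, 73 moved by over 1.5 times. With 2 arrays a group and 4 residual degrees of freedom, a group left with 1 array is assumed to vary like the others, and calls near the threshold are lost readily.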
